A study of Mus musculus with 36 samples.

Results

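The genes described here encode chains of the fibrillar collagens of types I, III and V and of the beaded-filament collagen of type VI: Col1a1, Col1a2, Col3a1, Col5a1, Col5a2, Col5a3, Col6a1, Col6a2 and Col6a3. They were chosen by name, with earlier results of these data known. All 9 had at least 1 probe set on the mouse array, 15 probe sets in all, among 17097 genes with a probe set of their own. A gene with several probe sets is represented by its brightest one, as averaged over the arrays. Of the 9 genes, 8 passed the filter on low values and were tested among 12823 genes. The listed probe set of Col1a2 had a mean of 5.03 log2, under the filter at 5.19, and was not tested.

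RNA was measured on 36 arrays of mouse cells labelled as the neural fraction of the stroma of human oral carcinomas, grown orthotopically in NSG mice. NSG mice are immunodeficient and lack mature lymphocytes, while they keep cells such as macrophages. The tumours came from SCC25, an established human tongue carcinoma line, or from VDH15 oral carcinoma cells, and expressed a non-targeting shRNA from the PLKO vector, or shCD36, directed at the fatty acid receptor CD36. The shRNAs were carried by the human tumour cells, while the arrays read mouse transcripts. The first VDH15 experiment compared non-targeting tumours in mice fed control, palmitic acid-rich or oleic acid-rich food, with 4 arrays a group. Both shRNAs were combined with the control and the palmitate diet in SCC25 and in the second VDH15 experiment, with 3 arrays a group. The labels give each group 1 biological replicate and count its arrays as technical replicates, so their spread is not the spread between tumours. Comparisons across experiments therefore rest on n = 3 where palmitate is set against control diet with the non-targeting shRNA, on n = 2 wherever shCD36 enters, and on n = 1 for oleate. The animals' age and sex, and how many mice or tumours gave the RNA of a group, are not given in the sources used here.

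Fibrillar collagens assemble into the fibres that give connective tissue its tensile strength. Type I is the bulk of most fibres, type III co-assembles with it in extensible tissue, and type V sits inside type I fibres and helps to start and limit their growth. Type VI forms beaded filaments around cells and between fibres, with Col6a1, Col6a2 and Col6a3 encoding its chains. In tumours and in peripheral nerve these collagens are made mainly by fibroblasts and related mesenchymal cells, and Schwann cells also make type V and type VI chains.

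Several facts about the whole data set touch every value. Palmitate arrays 1 and 2 of the first VDH15 experiment and palmitate array 1 of the second, all of non-targeting tumours, stood apart on the first principal component, which held 44.5% of the variance. Their scores were 53.2, 50.1 and 42.5, against 13.8 to 23.2 for the rest of the palmitate arrays with the non-targeting shRNA. Markers of the labelled neural cells were measured in part: S100b, Gfap and Foxd3 lay under the filter. Of those tested, the Schwann cell regulator Sox10 had group means of 6.77 to 6.98 log2, Mbp 6.56 to 6.77, Ngfr 7.50 to 8.16, Erbb3 8.05 to 9.64, Ncam1 6.77 to 8.38 and L1cam 6.91 to 7.59. The keratinocyte genes Krt5 and Krt14 had group means of 12.49 to 12.60 and 12.43 to 12.71; levels of different probe sets are not comparable with each other. In such bulk samples, more cells that make collagen and more collagen RNA per cell cannot be told apart.

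The sequences just upstream of the transcription starts are shown because these genes, which lie on several chromosomes, shared much of their pattern. RefSeq promoter sequences (GRCm38.p6) were at hand for 7 of the 9 genes, in 8 entries, and 150 bases before the start are given for 5 genes, 5′ to 3′ on the gene's strand. Capitals mark a CCAAT box (CCAAT), a GC box (GGGCGG) or a TATA box (TATAAA) on either strand; in Col6a2 the last pair of GC boxes overlaps.
Col3a1, chr1:45311388-45311537, plus strand: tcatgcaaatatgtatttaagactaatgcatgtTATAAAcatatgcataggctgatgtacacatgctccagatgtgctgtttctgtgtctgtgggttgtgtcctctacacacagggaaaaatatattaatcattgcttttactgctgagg
Col5a1, chr2:27886275-27886424, plus strand: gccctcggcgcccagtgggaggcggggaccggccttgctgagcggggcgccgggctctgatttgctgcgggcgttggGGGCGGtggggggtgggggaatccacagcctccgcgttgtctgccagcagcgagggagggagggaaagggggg
Col5a3, chr9:20815068-20815217, minus strand: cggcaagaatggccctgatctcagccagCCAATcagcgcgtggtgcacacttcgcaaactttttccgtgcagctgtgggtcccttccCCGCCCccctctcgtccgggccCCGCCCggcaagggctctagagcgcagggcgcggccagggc
Col6a2, chr10:76623405-76623554, minus strand: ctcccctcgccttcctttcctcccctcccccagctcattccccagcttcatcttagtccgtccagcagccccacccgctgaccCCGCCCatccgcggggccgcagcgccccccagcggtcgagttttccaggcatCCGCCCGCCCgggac
Col6a1, chr10:76726045-76726194, minus strand: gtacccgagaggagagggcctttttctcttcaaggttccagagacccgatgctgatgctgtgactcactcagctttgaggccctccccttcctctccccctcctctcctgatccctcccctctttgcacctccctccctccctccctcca

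The upstream sequences had little in common in these letters. Over 250 bases upstream and on both strands, a GC box was present in 4 of the 7 genes (Col5a1, Col1a2, Col5a3 and Col6a2), against 32.7% of the 32851 RefSeq promoters. A CCAAT box was present in Col1a2 and Col5a3, against 33.8% of promoters, and TATAAA in Col3a1 alone, against 12.4%. The Smad element CAGAC, which is not capitalised above, was present in 5 genes (Col3a1, Col6a3, Col5a1, Col1a2 and Col6a2), against 42.2% of promoters. The G and C content of the 250 bases ran from 35.2% in Col3a1 to 76.4% in Col5a1, with a median of 52.4% over all promoters. A match to such short letters is a description of the sequence and not a binding site.

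By RefSeq gene order, Col3a1 lies next to Col5a2 on chromosome 1 and Col6a2 next to Col6a1 on chromosome 10, with 0 protein-coding genes between the latter pair. Of the other genes that flank the 9, 8 were tested (Bet1, Casd1, Cops8, Fcnb, Ftcd, Pcbp3, Rxra and Sgca). Their palmitate changes in non-targeting tumours ran from -0.32 for Rxra to 0.15 for Casd1 on the log2 scale, and none passed the test, with adjusted p from 0.155 for Rxra to 0.99 for Cops8 in limma.

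The first question was how the palmitate diet moved the collagen genes in non-targeting tumours. All 8 measured genes were higher on palmitate in each of the 3 experiments, and 6 of them, all 3 type V and all 3 type VI chains, passed the test across experiments. The same test called 3.65% of all tested genes higher. Col1a1 and Col3a1 had larger differences in SCC25 than any other member but varied so much between experiments that they did not pass. The median change of the 8 genes was 2.07 log2, against -0.03 over all genes tested.

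**Figure D1:**
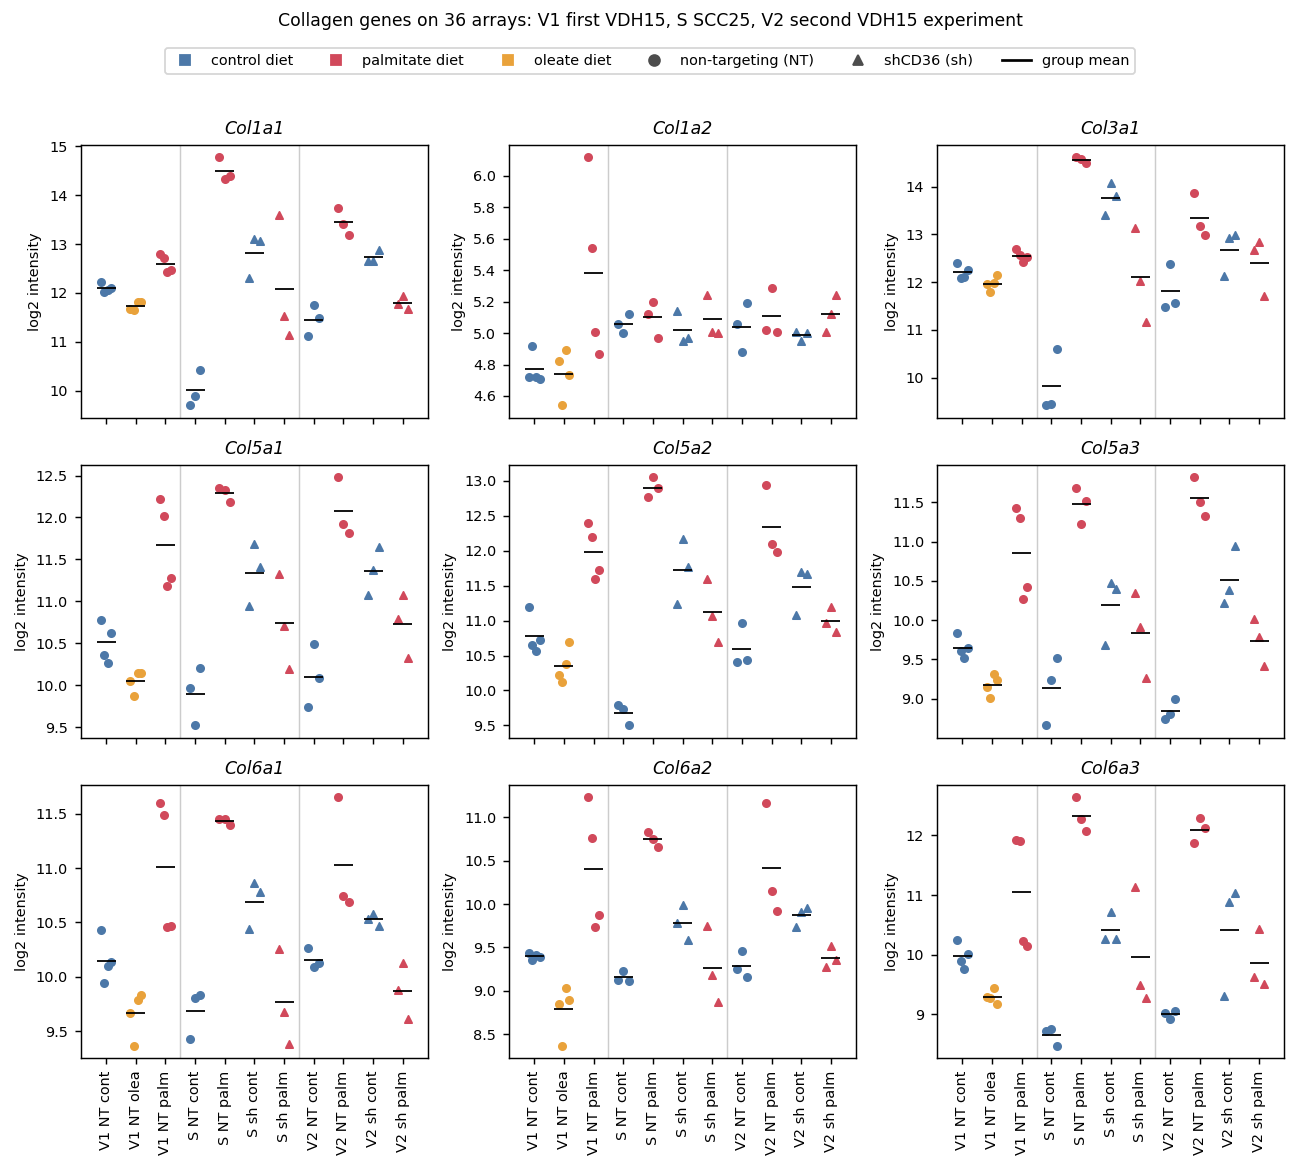
Each panel plots 1 gene, with log2 intensity on the vertical axis and the 11 groups on the horizontal axis (V1 and V2, the first and second VDH15 experiment; S, SCC25; NT, non-targeting; sh, shCD36); points are arrays and bars are group means. In 8 genes the palmitate groups of non-targeting tumours (red circles) have higher means than their control groups, while Col1a2 stays between 4.74 and 5.38 in every group mean.

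Col1a1 encodes the main chain of type I collagen. In SCC25 its arrays read 9.70, 9.90 and 10.43 log2 on control diet and 14.78, 14.33 and 14.40 on palmitate. In the second VDH15 experiment they read 11.11, 11.76 and 11.48 on control diet and 13.74, 13.41 and 13.19 on palmitate. In the first VDH15 experiment they read 12.22, 12.02, 12.07 and 12.10 on control diet and 12.80, 12.72, 12.43 and 12.46 on palmitate. No palmitate array overlapped a control array of its experiment, yet the differences of 4.49, 2.00 and 0.50 log2 ranged widely. Across the 3 experiments limma gave 2.33 ± 0.65 (SE), a 5.03-fold difference with an adjusted p of 0.0764.

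Col3a1 encodes the only chain of type III collagen. In SCC25 its arrays read 9.42, 9.44 and 10.60 on control diet and 14.62, 14.58 and 14.50 on palmitate, the largest difference of group means of any member in any experiment. In the second VDH15 experiment they read 11.47, 12.38 and 11.57 against 13.87, 13.18 and 12.99. In the first they read 12.41, 12.09, 12.11 and 12.26 against 12.69, 12.57, 12.43 and 12.52. Groups did not overlap in any experiment, but in the first VDH15 experiment the lowest palmitate array lay just above the highest control array. The fitted difference was 2.21 ± 0.77 with an adjusted p of 0.13 in limma.

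Col1a2 encodes the other chain of type I collagen, and the array table listed only 1 probe set for it, of low signal. Its group means lay between 4.74 and 5.38, and 9 of its 10 neighbouring pairs of groups, when ordered by level, overlapped. The highest group was palmitate in the first VDH15 experiment, at 6.12, 5.54, 5.01 and 4.87, where the 2 arrays that stood apart were the highest. Fitted without the filter, palmitate over control was 0.24 ± 0.12 with an adjusted p of 0.289 over 17097 genes.

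The type V chains all rose on palmitate. Col5a1 read 9.97, 9.52 and 10.21 on control diet in SCC25 and 12.35, 12.33 and 12.18 on palmitate. It read 9.74, 10.49 and 10.08 against 12.48, 11.92 and 11.82 in the second VDH15 experiment, and 10.78, 10.36, 10.27 and 10.62 against 12.22, 12.02, 11.18 and 11.28 in the first. The groups were apart in all 3 experiments, and in the first VDH15 experiment the palmitate arrays split into a higher and a lower pair, the higher pair being the arrays that stood apart. The fitted rise was 1.84 ± 0.20 log2, 3.59-fold, with an adjusted p of 0.0149.

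Col5a2, which joins Col5a1 in the common form of type V, rose by 2.05 ± 0.35 log2 (4.15-fold, adjusted p 0.028). Its group means went from 10.78 to 11.98 in the first VDH15 experiment, from 9.68 to 12.90 in SCC25 and from 10.60 to 12.34 in the second VDH15 experiment. Col5a3, the chain of a more restricted form, rose by 2.08 ± 0.27 log2 (4.23-fold, adjusted p 0.0174). Its group means went from 9.65 to 10.85, from 9.14 to 11.48 and from 8.85 to 11.55 in the same order. Neither gene had an array on palmitate below an array on control diet of the same experiment.

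Among the type VI chains Col6a3, the longest, had the largest fitted increase of all 12823 genes. It read 8.73, 8.75 and 8.48 on control diet in SCC25 and 12.64, 12.27 and 12.08 on palmitate. It read 9.02, 8.93 and 9.05 against 11.87, 12.29 and 12.12 in the second VDH15 experiment, and 10.25, 9.90, 9.76 and 10.01 against 11.93, 11.91, 10.23 and 10.15 in the first. In that first experiment the groups overlapped: palmitate arrays 3 and 4 lay within the control arrays, and arrays 1 and 2 lay far above them. The fitted rise was 2.61 ± 0.43 log2, 6.12-fold, with an adjusted p of 0.0276.

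Col6a1 and Col6a2 moved less and more evenly. Col6a2 read 9.13, 9.23 and 9.11 against 10.83, 10.75 and 10.66 in SCC25, then 9.25, 9.46 and 9.16 against 11.16, 10.15 and 9.92 in the second VDH15 experiment, and 9.44, 9.36, 9.41 and 9.39 against 11.23, 10.76, 9.73 and 9.87 in the first. In both VDH15 experiments the arrays that stood apart gave the top values, and the other palmitate arrays still lay above every control array. The fitted rise of Col6a2 was 1.24 ± 0.12 log2 (2.35-fold, adjusted p 0.0104). Col6a1 rose by 1.15 ± 0.18 log2 (2.23-fold, adjusted p 0.0232), with group means going from 10.15 to 11.01, from 9.69 to 11.43 and from 10.16 to 11.03.

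Within experiments, the separation of arrays was counted beside the same share over all genes tested. In the first VDH15 experiment all palmitate arrays lay above all control arrays in 7 of 8 collagen genes, the exception being Col6a3, against 17.2% of tested genes; the median difference was 1.04 log2. In SCC25 this held for 8 of 8, against 15.4%, with a median difference of 2.81. In the second VDH15 experiment it held for 8 of 8, against 14.9%, with a median of 1.86. Arrays of a group are technical replicates, so these counts carry no test.

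The differences were recomputed without the arrays that stood apart. In the first VDH15 experiment those of type VI were 0.21 for Col6a3, 0.31 for Col6a1 and 0.40 for Col6a2, against 1.08, 0.86 and 0.99 with them. There those of Col5a1, Col5a2 and Col5a3 were 0.72, 0.88 and 0.69, against 1.17, 1.20 and 1.20. For the second VDH15 experiment, Col6a3 was at 3.21 without and 3.09 with its array that stood apart, Col6a1 at 0.55 and 0.87, Col6a2 at 0.74 and 1.12, Col5a2 at 1.43 and 1.73, and Col3a1 at 1.28 and 1.54. Fitted without these arrays, 3 of 8 genes were called in place of 6 (4.67% of all genes in either direction): the type V genes passed, while Col6a1 (0.87, adjusted p 0.0888), Col6a2 (0.91, adjusted p 0.0603) and Col6a3 (2.36, adjusted p 0.0672) did not. The calls also rested on which groups entered the fit. With only the non-targeting control and palmitate groups 0 of 8 were called, the 6 genes then having adjusted p from 0.0638 to 0.097, while limma called 34 of all genes. By experiment, 6 genes were called without the first VDH15 experiment (1.75% of all genes), and 0 without SCC25 or without the second VDH15 experiment, where limma called 0 of all genes as well. In those last fits the changes of the 8 genes stayed positive, from 0.86 for Col6a1 to 2.08 for Col6a3 without SCC25 and from 1.29 for Col6a2 to 2.54 for Col3a1 without the second VDH15 experiment. Leaving out palmitate array 1 of the second VDH15 experiment alone left 5 genes called, with Col6a1 at 1.05 and an adjusted p of 0.0508.

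The scan batch divides each group of the first VDH15 experiment. The median palmitate difference of the 8 genes was 1.08 in 1 scan batch, with a range of 0.34 to 1.25, and 1.02 in the other, with a range of 0.33 to 1.21. The deposited values had been adjusted for the labelled batches.

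Genes with several probe sets allowed a check of the sizes. All 14 probe sets of the 8 genes were higher on palmitate in each experiment. Fitted as single probe sets, 12 of the 15 probe sets of the 9 genes were called higher. The main fit called 3.65% of all tested genes higher. The exceptions were those of Col1a1 (2.33, adjusted p 0.0761 in limma) and Col1a2 (0.24, 0.255) and the bright one of Col3a1 (2.21, 0.13). Their estimates were above 0 as well.

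**Figure D2:**
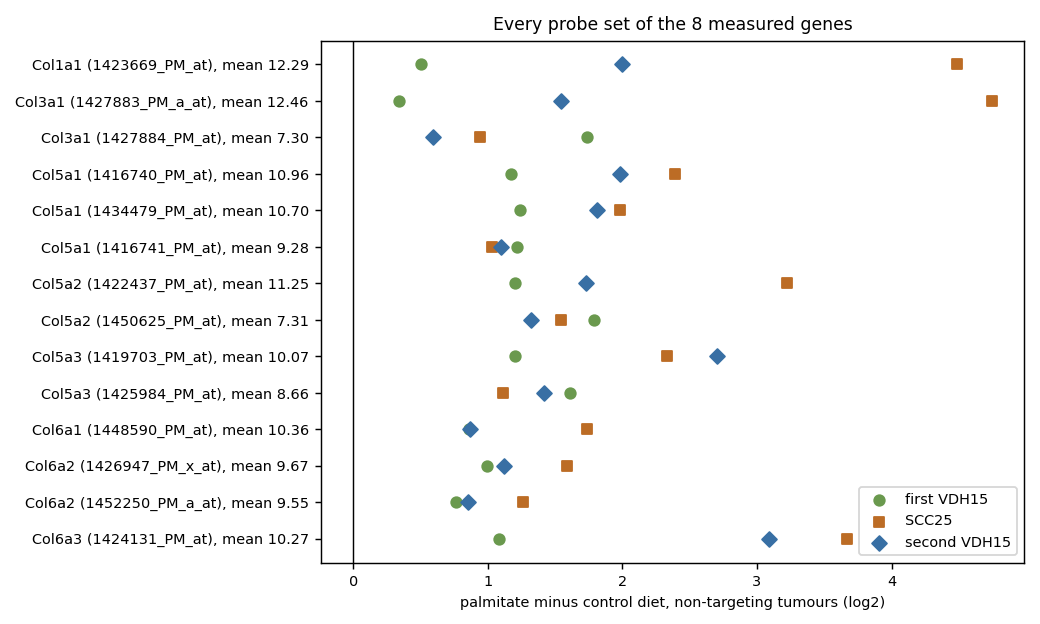
Each row is 1 probe set with its mean over the arrays, and the horizontal axis gives the palmitate minus control difference in non-targeting tumours in log2 for the 3 experiments. Every point lies above 0, and the probe sets of lower signal show smaller SCC25 differences than the brighter probe set of the same gene (the first VDH15 point of Col6a1, at 0.86, lies under that of the second, at 0.87).

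The order of the experiments was not the same for every probe set of a gene. For Col3a1 the bright probe set (mean 12.46) gave 0.34, 4.75 and 1.54 log2 in the first VDH15, the SCC25 and the second VDH15 experiment, whereas a dimmer probe set (mean 7.30) gave 1.74, 0.94 and 0.59. The dimmer one changed by 1.09 ± 0.20 with an adjusted p of 0.0322 among single probe sets, so Col3a1 passed by that probe set and not by the one that stood for it. For Col5a2 the probe set of mean 11.25 gave 1.20, 3.22 and 1.73, and that of mean 7.31 gave 1.79, 1.54 and 1.32. For Col5a3 the brighter probe set gave 1.20, 2.33 and 2.70, and the dimmer 1.61, 1.11 and 1.42. The brightest probe sets of Col3a1, Col5a1 and Col5a2 put SCC25 first and that of Col5a3 the second VDH15 experiment, whereas the dimmest probe set of each of these 4 genes put the first VDH15 experiment first. With the mean of all probe sets standing for a gene, 7 of 8 genes were called, and 966 of all genes in either direction. Col3a1 then changed by 1.65 with an adjusted p of 0.0483 in limma.

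The second question was whether the diet had the same relation to these genes when the tumour cells carried shCD36. All 8 genes were lower on palmitate than on control diet in both experiments that had shCD36 tumours, the reverse of the non-targeting tumours. Over all genes tested, 5.12% were higher on palmitate in all 3 non-targeting comparisons and lower in both shCD36 comparisons. limma called 0 of 8 genes across these 2 experiments, and 0.0% of all genes. At an unadjusted p under 0.05, 3 of 8 were lower, Col5a1, Col6a1 and Col6a2, against 0.951% of all genes. A fit of all arrays with duplicateCorrelation called 0 of 8 and 7 of all genes.

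**Figure D3:**
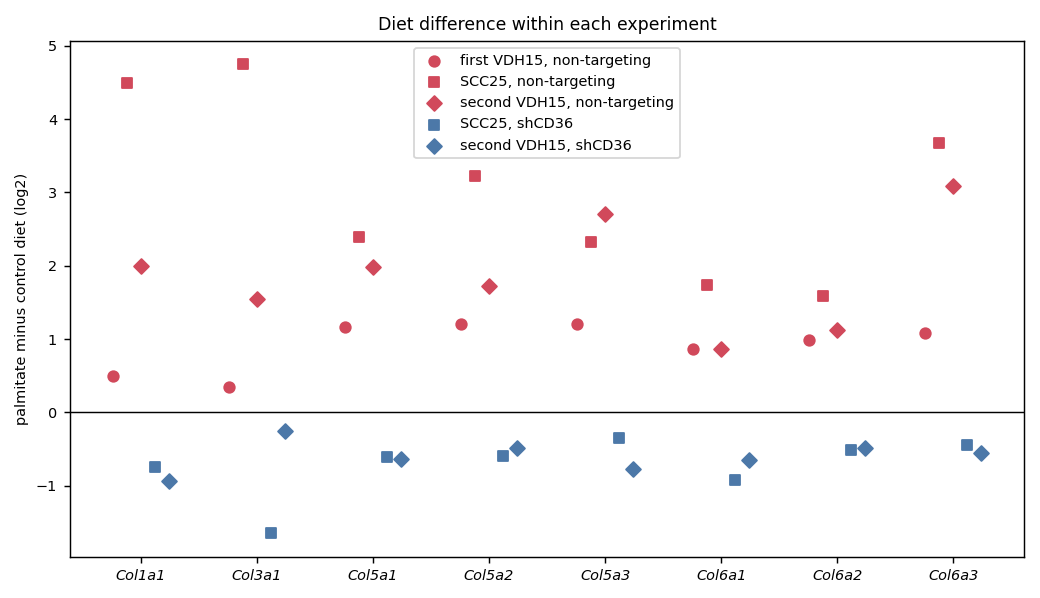
For 8 collagen genes, the vertical axis gives the difference of group means between palmitate and control diet in log2 within each experiment; red symbols are non-targeting tumours and blue symbols shCD36 tumours. All red symbols lie above 0, from 0.34 to 4.75, and all blue symbols below 0, from -1.65 to -0.26.

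In SCC25 tumours with shCD36, Col1a1 read 12.30, 13.10 and 13.06 on control diet and 13.59, 11.52 and 11.15 on palmitate. The palmitate arrays disagreed: array 1 was the highest of all 6 and the others were the lowest. Col3a1 read 13.40, 14.07 and 13.80 on control diet and 13.13, 12.03 and 11.16 on palmitate, with no overlap and a difference of -1.65, the largest of this comparison. Col6a3 read 10.26, 10.72 and 10.26 against 11.14, 9.50 and 9.27, again with palmitate array 1 at the top. Without that array the differences were -1.49 for Col1a1, -2.16 for Col3a1 and -1.03 for Col6a3, against -0.74, -1.65 and -0.44 with it. Over the 8 genes the median difference was -0.60, and palmitate arrays lay wholly below control arrays in 2 of 8, against 8.13% of all genes tested.

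In the second VDH15 experiment with shCD36, Col1a1 read 12.65, 12.66 and 12.87 on control diet and 11.78, 11.94 and 11.67 on palmitate, with no overlap. Col3a1 read 12.13, 12.92 and 12.98 against 12.67, 12.85 and 11.72, and the groups overlapped. Col6a2 read 9.73, 9.91 and 9.96 against 9.28, 9.52 and 9.35, with no overlap. The median difference was again -0.60, from -0.93 for Col1a1 to -0.26 for Col3a1, and the arrays did not overlap in 4 of 8 genes, against 12.3% of all genes. Leaving out 1 palmitate array moved Col3a1 to 0.08, while the other 7 genes stayed lower whichever array was left out. The dimmer probe set of Col3a1 gave -0.12 in SCC25 and 0.22 in the second VDH15 experiment, so the direction of Col3a1 there depended on the probe set.

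The fitted differences across both experiments ran from -0.96 ± 0.95 for Col3a1 to -0.50 ± 0.15 for Col6a2 and -0.50 ± 0.53 for Col6a3, each with an adjusted p of 1 in limma. Their intervals were wide: the 95% confidence interval was -2.72 to 1.05 for Col1a1 and -1.30 to -0.28 for Col6a1. The difference between the diet effects of shCD36 and non-targeting tumours was tested directly. It ran from -3.16 for Col1a1 and Col3a1 to -1.74 ± 0.19 for Col6a2, with adjusted p from 0.0659 to 0.299, so limma called 0 of 8 (0.0% of all genes). All 8 had an unadjusted p under 0.05 in that test, against 7.60% of all genes with a negative value. When limma was fitted to single probe sets, dimmer ones of type V chains were called. These were at -2.08 (adjusted p 0.0437) and -1.47 (0.0335) for Col5a1, -1.77 (0.0437) for Col5a2 and -1.6 (0.0437) for Col5a3. The dimmer ones of Col3a1 (-1.04, 0.222) and Col6a2 (-1.27, 0.0739) were not called. With all arrays and duplicateCorrelation 8 of 8 were called (8.20% of all genes in either direction), and without the experiment term 6 of 8 (5.45%). Both of these fits can overstate the precision. The former counts technical arrays as partly separate observations, and the latter drops a term for differences already taken out of the values. Without the first VDH15 experiment 3 were called, of 4 among all genes (Col5a1 at -2.80, Col5a3 at -3.08 and Col6a3 at -3.88). Col6a2 alone was called when palmitate array 3 of the first VDH15 experiment (-1.81, adjusted p 0.0488) or array 2 (-1.78, 0.0378) or array 3 of the second (-1.82, 0.0348) was left out, all of non-targeting tumours.

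**Figure D4:**
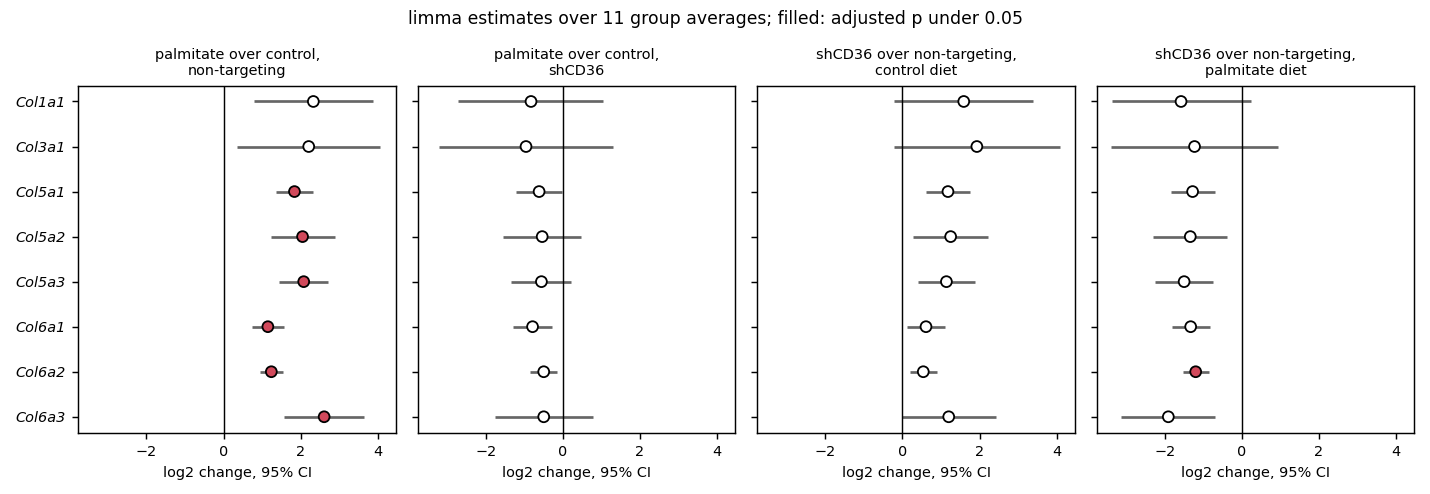
The horizontal axes give limma's log2 change with its 95% confidence interval for 8 collagen genes in 4 comparisons, and filled points have an adjusted p under 0.05. The points are filled for all type V and type VI genes in the first panel and for Col6a2 alone in the last.

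The third question was how shCD36 and non-targeting tumours differed on each diet. These comparisons share their groups with those above and are not independent of them. On control diet all 8 genes were higher with shCD36, and on palmitate all 8 were lower. In SCC25 on control diet the shCD36 arrays lay above the non-targeting arrays in 8 of 8 genes, against 13.1% of all genes, with differences from 0.63 for Col6a2 to 3.94 for Col3a1. In the second VDH15 experiment they did so in 7 of 8, against 10.2%, with differences from 0.37 for Col6a1 to 1.67 for Col5a3. Col6a3 on control diet in the second VDH15 experiment read 9.02, 8.93 and 9.05 in non-targeting and 9.31, 10.89 and 11.04 in shCD36 tumours, where array 1 lay close to the non-targeting arrays.

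On palmitate the order was reversed. In SCC25 all shCD36 arrays lay below all non-targeting arrays in 8 of 8 genes, against 12.5% of all genes, with a median difference of -1.72. In the second VDH15 experiment the same held for 8 of 8, against 19.0%, with a median of -1.34 and the largest difference, -2.23, for Col6a3. In that experiment Col6a3 read 11.87, 12.29 and 12.12 in non-targeting and 9.63, 10.44 and 9.51 in shCD36 tumours.

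Across experiments limma called 0 of 8 genes on control diet (0.0% of all genes) and 1 of 8 lower on palmitate (0.14% of all genes). On control diet the estimates ran from 0.54 ± 0.14 for Col6a2 to 1.93 ± 0.91 for Col3a1, with adjusted p from 0.96 to 0.991. Col5a1, Col5a2, Col5a3, Col6a1 and Col6a2, 5 of 8, had an unadjusted p under 0.05 there, against 1.58% of all genes higher, and duplicateCorrelation called 0 of 8 and 35 of all genes. On palmitate Col6a2 fell by 1.20 ± 0.14 (SE) on the log2 scale, with an adjusted p of 0.0398. Col6a1 followed at -1.33 ± 0.21 with an adjusted p of 0.0642 and Col5a1 at -1.28 ± 0.24 with 0.0841, neither passing. As single probe sets in limma, dimmer ones of type V chains were called lower. These were at -1.28 (adjusted p 0.0412) and -0.97 (0.0209) for Col5a1, -1.24 (0.0316) for Col5a2 and -0.98 (0.0381) for Col5a3. The dimmer ones of Col3a1 (-0.56, 0.274) and Col6a2 (-0.79, 0.0746) were not called. The call of Col6a2 was lost without palmitate array 1 of the first VDH15 experiment (-1.15, adjusted p 0.0581) and without palmitate array 1 of the second (-1.04, adjusted p 0.129), both of non-targeting tumours. It was also lost without SCC25 (-1.0, adjusted p 0.206) and without the second VDH15 experiment (-1.33, adjusted p 0.734). Without the first VDH15 experiment 5 of 8 genes were called (0.897% of all genes in either direction), and without control array 1 of non-targeting SCC25 tumours 2 of 8, Col6a1 then being at -1.34 with an adjusted p of 0.0477.

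The oleate diet was given in the first VDH15 experiment only. There all 8 genes were lower on oleate than on control diet, with a median difference of -0.47, and oleate arrays lay wholly below control arrays in 6 of 8, against 9.06% of all genes. Col6a3 read 9.30, 9.28, 9.45 and 9.17 on oleate and 10.25, 9.90, 9.76 and 10.01 on control diet, a difference of -0.68 with no overlap. Col1a1 read 11.67, 11.66, 11.81 and 11.81 on oleate, below all control arrays, and Col5a2, at 10.22, 10.12, 10.38 and 10.69, overlapped its control arrays of 10.57 to 11.19. The differences were larger in 1 scan batch, with a median of -0.66 and a range of -0.82 to -0.39, than in the other, with -0.30 and a range of -0.65 to -0.11.

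Palmitate lay above oleate in 8 of 8 genes, against 15.9% of all genes, with differences from 0.58 for Col3a1 to 1.76 for Col6a3. Without the 2 palmitate arrays that stood apart these 2 differences were 0.51 and 0.89. In the fit, which takes the experiment's level from all its groups, oleate over control ran from -0.50 ± 0.19 for Col6a2 to 0.69 ± 1.22 for Col3a1, so that Col1a1, Col3a1 and Col6a3 had the opposite sign to the plain difference within the experiment. limma called 0 of 8 for oleate over control (0.0% of all genes), with 1 of 8, Col6a2, lower at an unadjusted p under 0.05, against 1.23% of all genes, and 0 of 8 with duplicateCorrelation. For palmitate over oleate it called 0 of 8 (0.039% of all genes), with estimates from 1.49 for Col6a1 to 2.52 for Col6a3, 6 of 8 higher at an unadjusted p under 0.05, against 6.40% of all genes, and 6 of 8 called with duplicateCorrelation (4.53% of all genes in either direction). Col6a2 was called without non-targeting palmitate array 2 (1.75, adjusted p 0.047) or array 3 (1.77, 0.0365) of the second VDH15 experiment. By single probe sets in limma, the dimmest of Col5a1 (1.87, adjusted p 0.00684), Col5a2 (2.4, 0.0151) and Col5a3 (2.23, 0.0151) were called for palmitate over oleate. Another of Col5a1 (1.95, 0.0591) and the dimmer ones of Col3a1 (1.98, 0.118) and Col6a2 (1.4, 0.0895) were not.

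The 8 genes followed a shared profile over the 11 groups. Each gene was centred on its mean over groups and the 8 were averaged. The deposited values had been adjusted for the labelled batches, which differ between experiments, so the order of groups across experiments depends on that adjustment. This average was highest in SCC25 non-targeting palmitate, at 1.60, followed by the second VDH15 experiment's at 1.11 and the first's at 0.59. The shCD36 control-diet groups came next, at 0.41 in SCC25 and 0.27 in the second VDH15 experiment. The shCD36 palmitate groups, at -0.32 and -0.33, and the control groups of non-targeting tumours, at -0.33, -0.77 and -1.42, lay below them, with the oleate group at -0.80. Most neighbours in the order of a single gene were not apart: of 10 neighbouring pairs of groups, the arrays overlapped in 10 for Col5a1, 9 for Col5a2, Col5a3 and Col6a1, 8 for Col6a2, 7 for Col3a1, and 6 for Col1a1 and Col6a3.

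Over the 11 group means, which share batches and diets, the 28 pairs of the 8 genes had Pearson r from 0.73 to 0.98 with a median of 0.92. Between arrays of the same group, each array's deviation from its group mean gave r from 0.51 to 0.89 over the 36 arrays, with a median of 0.68. The 8 genes thus also varied together between arrays of a group. The arrays that stood apart were included. No such r was taken for other genes, so this is not shown to be particular to the collagens. The 8 genes outside the list that came closest to the average profile, taken here over all 9, were Bgn (r = 0.988), Timp1 (0.984), Lgals1 (0.973), Serpinf1 (0.973), Lox (0.963), Nrep (0.963), Fstl1 (0.956) and Mfap5 (0.951), each over 11 groups. Bgn encodes the matrix proteoglycan biglycan and Timp1 an inhibitor of matrix proteases. Bgn was 0.88, 3.35 and 1.58 log2 higher on palmitate in the first VDH15, the SCC25 and the second VDH15 experiment, and -1.0 and -0.48 in the shCD36 tumours of the last pair.

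Taken gene by gene, the closest gene was Fstl1 for Col1a1 (r = 0.976) and for Col3a1 (0.968), Timp1 for Col5a1 (0.988), Lgals1 for Col5a2 (0.988) and Rdh5 for Col5a3 (0.987). It was Serping1 for Col6a1 (0.982), Vcan for Col6a2 (0.988) and Col5a3 for Col6a3 (0.976). Among the members, Col6a1 and Col6a2 had each other as the closest, at r = 0.97, and the closest to Col6a3 was Col5a3. The dim Col1a2 probe set had its best member, Col6a2, at r = 0.587 and only at rank 1852.

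The other genes of collagen production were read from lists written from general knowledge, in the palmitate comparison of non-targeting tumours. In counts of these lists and of the marker lists, rose and fell stand for an adjusted p under 0.05 in limma. Of all 12823 genes tested, 468 (3.65%) rose and 419 fell by that rule, while 5267 were higher and 7556 lower. Of 8 other fibrillar and type VI chains, 3 passed the filter and 1 rose, Col27a1, by 1.22 ± 0.22 log2 (adjusted p 0.0319); Col2a1 was at -0.20 and Col6a4 at 0.03. Of 27 further collagens, 20 were tested and 1 rose, Col15a1, a basement membrane zone collagen, by 1.53 ± 0.32 (adjusted p 0.0415). The median of these 20 was 0.29, and the basement membrane chains Col4a1 and Col4a2 were at 1.43 and 1.91 with adjusted p of 0.113 and 0.084. The rise was called in 6 of the 8 measured collagens described here and in 2 of the 23 others tested. This contrast was not itself tested, and the genes and lists were chosen with earlier results of these data known.

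Enzymes that modify and cleave procollagen were read next. Of 18 tested genes of hydroxylation and folding, 4 rose and 1 fell, with a median of 0.26. Serpinh1, the collagen chaperone, rose by 0.71 ± 0.12 (adjusted p 0.0288), Plod1, a lysyl hydroxylase, by 0.90 ± 0.17 (0.035), Crtap, part of the prolyl 3-hydroxylase complex, by 0.49 ± 0.09 (0.0346) and Plod3 by 0.45 ± 0.10 (0.0432). P3h4, another member of such complexes, fell by 0.38 ± 0.06 (adjusted p 0.028). Of 5 tested genes of propeptide cleavage, 2 rose with a list median of 0.92: Bmp1, a procollagen C-proteinase, by 0.58 ± 0.10 (adjusted p 0.0288) and its enhancer Pcolce by 1.05 ± 0.19 (0.0319).

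Lysyl oxidases and receptors act on collagen outside the cell. All 5 lysyl oxidases, which cross-link fibres, were tested, and 3 rose: Lox by 2.15 ± 0.30 (adjusted p 0.0199), Loxl1 by 1.48 ± 0.20 (0.0187) and Loxl3 by 1.28 ± 0.12 (0.00995). All 5 were higher on palmitate in the 3 non-targeting comparisons and lower in both shCD36 comparisons, as the 8 collagens were; no other list reached this in all its tested members. Of 9 tested collagen receptors, 6 were higher and 3 lower, with a median of 0.04. In that list 3 rose, Antxr2 by 1.18 ± 0.07 (adjusted p 0.00593), Ddr2 by 1.11 ± 0.17 (0.0251) and Itga1 by 0.80 ± 0.14 (0.0296), and Ddr1 fell by 0.52 ± 0.12 (0.0488). Ddr2 and Ddr1 are the receptor tyrosine kinases for collagen typical of mesenchymal and of epithelial cells.

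Of 7 tested genes of collagen uptake and breakdown, all were higher, with a median of 0.89, and 2 rose: Ctsk, a lysosomal collagenase, by 1.64 ± 0.12 (adjusted p 0.00628) and Fap, a fibroblast surface protease, by 1.44 ± 0.28 (0.0363). With shCD36 on the palmitate diet, Ctsk was lower by a called amount, -1.39 ± 0.14 (adjusted p 0.0314), as was Antxr2 at -1.01 ± 0.08 (0.0262). Between the diets in shCD36 tumours, every tested gene of these lists had an adjusted p of 1 in limma.

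Marker genes of cell types were read beside the collagens, with counts to be set against the 3.65% of all tested genes that rose. Of 16 fibroblast markers, 12 were tested, 10 were higher on palmitate in non-targeting tumours and 7 rose, among them Prrx1 (1.65 ± 0.13, adjusted p 0.00628), Thy1 (0.84 ± 0.13, 0.0259) and Twist2 (0.90 ± 0.17, 0.035), with a list median of 0.89. The defining markers Pdgfra, Fbln2, Dpp4 and Tcf21 lay under the filter, with Pdgfra at 4.48 to 5.20 over the groups. The mean level of the 12 ran from 8.11 in the oleate group to 9.56 in SCC25 non-targeting palmitate. It followed the average of all 9 collagen genes over the 11 groups with r = 0.93. The same r was 0.78 for pericyte and smooth muscle, 0.76 for endothelial, 0.65 for macrophage and -0.71 for keratinocyte markers.

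**Figure D5:**
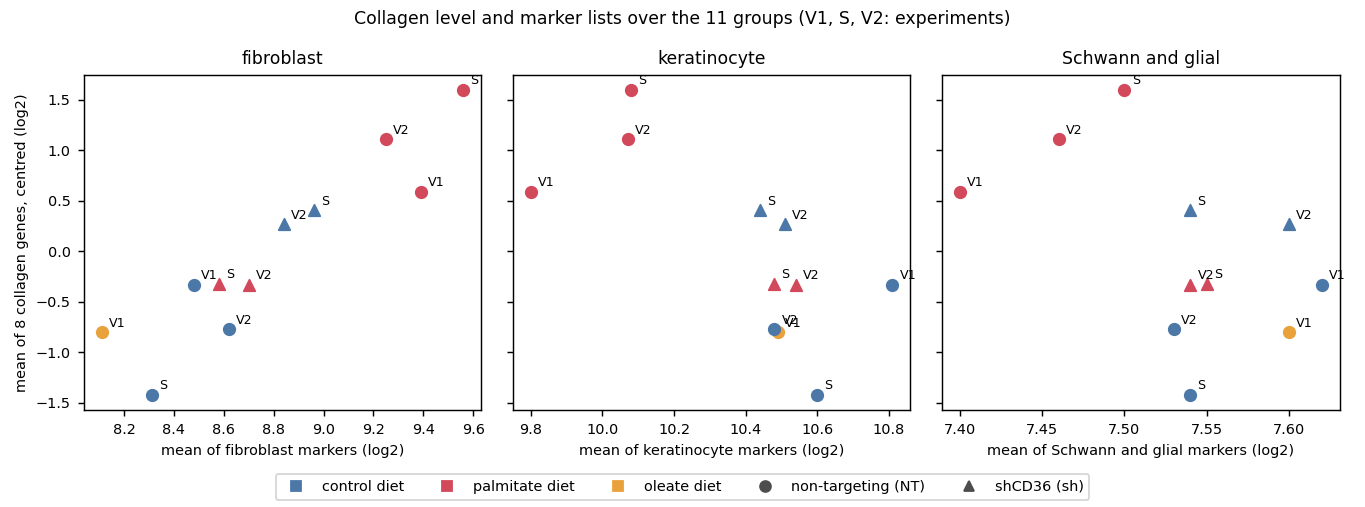
For the 11 groups, the vertical axis gives the centred mean of 8 collagen genes and the horizontal axes the mean log2 level of fibroblast, keratinocyte and Schwann or glial markers; colours are diets, circles non-targeting and triangles shCD36 tumours. Collagen level follows the fibroblast markers from 8.11 to 9.56, is highest where keratinocyte markers are between 9.80 and 10.08, and the Schwann markers span only 7.40 to 7.62.

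Markers of other cell types were read in the same comparison, in which 468 of all 12823 tested genes rose and 419 fell. Without regard to a test, 5267 of all genes were higher and 7556 lower. All 10 endothelial markers were higher and 4 rose, with a median of 1.59, and their group levels ran from 7.89 to 9.98. All 7 tested macrophage markers were higher and 2 rose, with a median of 0.83, while 10 of 11 keratinocyte markers were lower and 3 fell (Krt10, Krt4 and Krt13), with a median of -0.45. The macrophage and leukocyte markers Adgre1, Ptprc and Itgam lay under the filter, with Adgre1 at 4.56 to 4.98 over the groups. Of 8 pericyte and smooth muscle markers 6 were higher and 1 rose, Mcam, with a median of 0.70. Of 6 adipocyte markers 2 were tested, Fabp4 (1.44 ± 0.46, adjusted p 0.103) and Lpl (0.36), and Adipoq and Lep lay under the filter. The mean of these 2 was 0.70, 1.79 and 0.21 higher on palmitate in the first VDH15, the SCC25 and the second VDH15 experiment, with group levels of 7.50 to 9.29, and its r with the collagen average over 11 groups was 0.82. All 5 tested skeletal muscle markers were below 0, with a median of -0.03. The list medians were -0.06 for 6 tested Schwann and glial markers and 0.02 for 5 tested neuron markers. Of the former, Ncam1 rose (0.84 ± 0.17, adjusted p 0.0404 in limma) and L1cam fell (-0.57 ± 0.06, 0.0146). Of the latter, Tubb3 fell (-1.16 ± 0.14, 0.0171), and Snap25, Nefl, Nefm and Elavl4 lay under the filter. The r of the mean level with the collagen average was -0.51 for Schwann and glial and -0.47 for neuron markers.

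In shCD36 tumours the lists parted. The fibroblast markers were lower on palmitate in both experiments in 9 of 12, against 24.2% of all genes tested. The endothelial markers were so in 1 of 10 and the macrophage markers in 0 of 7. The pericyte and smooth muscle markers were so in 4 of 8, the keratinocyte markers in 3 of 11 and the adipocyte markers in 1 of 2. The mean fibroblast level moved by -0.38 in SCC25 and -0.14 in the second VDH15 experiment, and the endothelial level by 0.34 and -0.40. In the same order the pericyte and smooth muscle level moved by -0.06 and -0.57. The adipocyte level moved by -0.05 and -0.48, and the macrophage level by 0.31 and 0.33. The part of any of these cell types in the collagen values was not tested.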

How the data were processed

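Mouse arrays of 36 samples were used. The authors' deposited values are in log2 intensity; the submitters' processing notes name RMA and affy. In these values the terms for scan and hybridisation batch were under 1e-06 in 100% of 45141 probe sets once diet and shRNA were modelled. The values had therefore already been adjusted for these batches. Each experiment had its own hybridisation batch, so an adjustment for cell line or experiment cannot be told apart from it. Array medians were 5.98 to 6.04, and the 3, 2 or 1 experiments behind a comparison set its precision. Platform annotation gave 1 gene for 28898 probe sets. The 25% of 17097 genes with the lowest mean were left out.

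limma 3.58.1 (R 4.3.3) was fitted to the 11 averages of each group's arrays, with condition and experiment as terms (4 residual and 2.7 prior degrees of freedom). Benjamini-Hochberg adjusted p under 0.05 over 12823 genes was called. The p-values measure only the spread between these samples. The script was tested on simulated data with independent noise and no differences between experiments. That checked the calculation and not the error rate in these data. Because the first VDH15 experiment has no shCD36 group, fitted values can differ from plain differences within experiments. Array replicate numbers are technical and pair no samples between groups; the experiment term is the block.

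The genes, lists and markers were chosen with earlier results of these data known. All members with every probe set are named, up to 4 genes a list by unadjusted p in palmitate over control of non-targeting tumours (Plod3, Col4a1 and Col4a2 were named after their values were seen), and the genes most alike by Pearson r over 11 groups, without predicted genes. Alternatives were the mean of probe sets, no filter, no experiment term, all arrays with duplicateCorrelation (consensus correlation 0.295), only the contrast's groups, medians of arrays, centred arrays, trend and robust options, and leaving out arrays or experiments. The duplicateCorrelation fit counts technical arrays as partly separate observations. The fit with no experiment term leaves out differences for which the values had already been adjusted. Both can overstate the precision. Promoter and gene order tables came from RefSeq.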

Additional observations from a re-analysis of the deposited data

Results flagged for a closer look

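In 27 groups of 4 arrays, 3 groups for each of the 9 genes, 1 array stood out from its group by Dixon's criterion, where chance gives about 1 in 20. It was the dim Col1a2 probe set in the control-diet group of the first VDH15 experiment, where array 2 read 4.92 log2 and the others 4.71 to 4.72. The whole spread of that group lies below the filter on low values.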

How the results depend on the processing

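Of the 8 collagen genes, 6 were called for palmitate over control with the non-targeting shRNA, 1 for shCD36 over non-targeting on palmitate and 0 in the other 5 comparisons. With the mean of probe sets, no filter, medians, centred arrays or trend and robust options the first count was 6 or 7. These settings called between 553 and 966 of all genes in either direction, against 887 in the main fit. The count was 7 with no replicate block and 8 with duplicateCorrelation, fits that called 3001 (23.4%) and 3052 (23.8%) of all genes. Both of those fits can overstate the precision. It was 3 without the 3 arrays that stood apart (4.67% of all genes), and 0 with only the groups of the contrast (adjusted p 0.0638 to 0.097 for the 6 genes in limma). The shCD36 count on palmitate was 2 with the mean of probe sets. It was 6 with no replicate block (13.4% of all genes in either direction) and 7 with duplicateCorrelation (12.7%). It was 0 with only the groups of the contrast, without the 3 arrays or with medians. The count for the difference of diet effects was 6 with no replicate block (5.45% of all genes) and 8 with duplicateCorrelation (8.20%). That for palmitate over oleate was 2 with the mean of probe sets, 6 with no replicate block (6.78%) and 6 with duplicateCorrelation (4.53%). Leaving out each experiment or array in turn gave 0 to 6, 0 to 5, 0 to 3 and 0 to 1 for these 4 counts, and 0 to 0 for oleate over control, for palmitate over control in shCD36 tumours and for the shRNA comparison on control diet. In these fits, which take 1 value a gene, directions turned only in oleate over control: Col3a1 was at -0.10 with the mean of probe sets, Col5a2 at 0.05 and Col5a3 at 0.11 without the 3 arrays, and Col5a2 at 0.01 with centred arrays; leaving out experiments or arrays gave -0.29 to 0.09 for Col5a2, -0.19 to 0.03 for Col5a3 and -0.18 to 0.19 for Col6a3. Among single probe sets, the dimmer one of Col3a1 was at 0.05 ± 0.25 for palmitate over control in shCD36 tumours, against -0.96 for the brighter. Some dimmer probe sets of type V chains were called where the brightest were not. This held for shCD36 over non-targeting on palmitate, the difference of diet effects and palmitate over oleate. Fits with only the groups of the contrast could not be made for the oleate comparisons. The causes were not tested. Without background signals, no depth or detection limit could be set, and Col1a2 is the gene this limits most.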
